A study of Rattus norvegicus with 8 samples.

Results

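The genes described here are 9 genes best known from fat cells: Adipoq, Lep, Retn, Plin1, Cidec, Cidea, Fabp4, Lpl and Pck1. They were chosen by name, with earlier results of these data known, among the 26204 gene names on a rat expression array. On it, 10 probes carried one of these names. Each of the 10 was well above background on every array. The arrays measured total RNA of ovaries from immature female rats, 4 arrays labelled PMSG and 4 labelled control. PMSG, the gonadotropin of pregnant mare serum, makes ovarian follicles grow. Per the labels, rats of 26 days received 50 IU PMSG in 0.2 ml albumin phosphate buffer under the skin, or the same volume of buffer. Ovaries were removed 48 h later, at 28 days of age, and the rats' strain is not given in the sources used here. The labels call the arrays replicates without saying whether each held RNA of 1 rat, so p-values cover the spread between these samples, which may be partly technical.

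White fat cells store triglyceride in 1 large lipid droplet and release hormones. Lipoprotein lipase frees fatty acids from circulating lipoproteins, fatty acid binding protein carries them inside the cell, and perilipin and the CIDE proteins coat and enlarge the droplet. Adiponectin, leptin and resistin are the secreted products, and the fat cell makes part of its glycerol phosphate through the enzyme that Pck1 encodes. In the rat, a fat pad adjoins the ovary. Ovarian cells also hold lipid droplets, as stores of cholesterol esters for steroid synthesis.

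The label of the tissue was set against ovarian markers first. All 8 genes on a list of granulosa and luteal cell genes were well above background on every array. Of these, 1 was called higher and 4 lower in the arrays labelled PMSG (1 higher and 5 lower after median centring). Amh, a hormone of growing follicles, was higher by 3.03 on the log2 scale. Cyp11a1 and Star, which start steroid synthesis, fell by 3.36 and 2.75, and the luteinising hormone receptor Lhcgr fell by 1.93. Gonadotropin is generally known to raise the last 3, so the measured direction runs against the labels, and every array is named below by its label.

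Values are log2 signals minus the array's own 75th percentile, so 0 is the level of that percentile and 1 unit is a doubling. Differences are the mean of the arrays labelled PMSG minus the mean of those labelled control. They were tested with limma, and p-values were adjusted over all 25303 probes that were well above background on at least 4 arrays. The 75th percentile lay between 1002 and 1103 signal units on the arrays labelled control and between 769 and 1082 on those labelled PMSG, lowest on PMSG array 3. Between 80.8% and 84.6% of probes were well above background on an array, the highest share on PMSG array 3. Over all tested probes, the median difference was 0.11 and the median SD within a label was 0.24.

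The 9 genes differed more between arrays of the same label than most probes did, and they did so together. Since the genes were chosen with earlier results of these data known, this is a description. Their SD within labels ran from 0.59 (Cidea) to 1.85 (Pck1). Only 10.8% of tested probes had an SD as large as that of Cidea, and 0.0593% one as large as that of Pck1. In contrast, 1 of the 9 genes, Cidea, differed between the labels after adjustment, a share of 11.1%, beside 34.2% of all tested probes. The means of 8 of the 9 were higher in the arrays labelled PMSG, as were those of 58.0% of all tested probes, and the median difference was 0.77. That direction of the 8 genes held under the other scalings tried (quantile, median, normexp and the deposited value table). In these whole-tissue RNA samples, a lower level through fewer fat cells cannot be told apart from one through less RNA per cell.

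**Figure D1:**
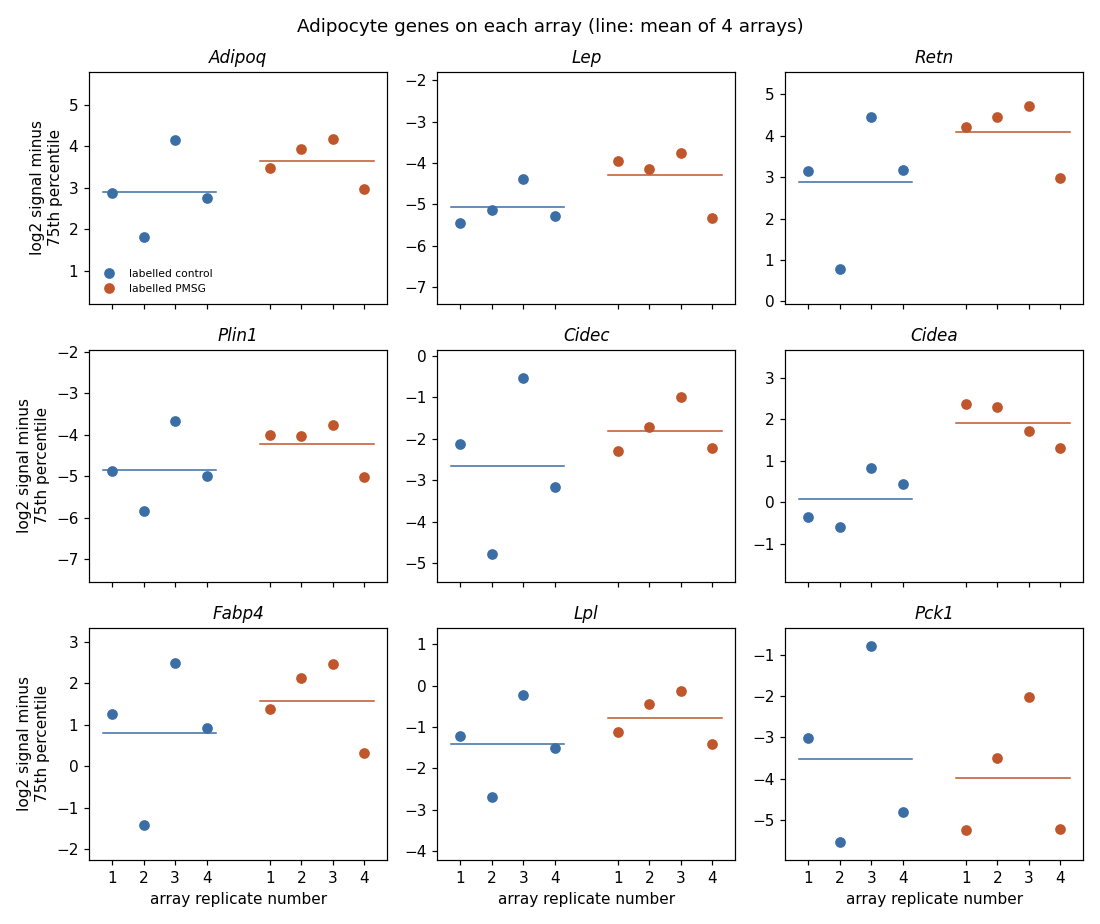
Level of each of the 9 genes (y axis, log2 signal minus the array's 75th percentile) on each array (x axis, replicate number), with a line at the mean of the 4 arrays of a label. Every panel spans the same number of log2 units. Control array 3 was the highest control in all 9 panels, and the labels did not overlap for Cidea alone.

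Cidea encodes a CIDE protein that enlarges lipid droplets, known above all from brown fat. Its level was -0.35, -0.61, 0.82 and 0.44 on control arrays 1 to 4 and 2.36, 2.31, 1.72 and 1.30 on PMSG arrays 1 to 4. The lowest array labelled PMSG lay above the highest array labelled control, a separation that 36.6% of all tested probes also showed. The difference was 1.85 (SE 0.37, limma adjusted p = 0.00577), which is 3.60-fold with a 95% interval of 2.01 to 6.46. The exact two-sided permutation test of 4 arrays against 4 gave p = 0.0286, the smallest it can give. A second Cidea probe also did not overlap between labels and differed by 1.61 (SE 0.37, limma adjusted p = 0.0116). Higher calls made up 17.6% of all tested probes. The Cidea call held in all 18 alternatives fitted over the 8 arrays or with 1 left out (other scalings, filters, weights, blocks and tests), with differences of 1.62 to 2.10. The arrays lay in 2 rows of 1 slide per the file headers, and Cidea differed by 2.09 within row 1 (limma adjusted p = 0.0485). Within row 2 the difference was 1.60 and did not pass (limma adjusted p = 0.225). No tested probe passed limma there after adjustment, while 6015 had an unadjusted p under 0.05. In the rn4 build, the probes lie on chromosome 18, at 63896918 to 63896975 for the brighter one and spanning 63888076 to 63895390 for the other.

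The hormone genes came next. Adipoq, which encodes adiponectin, read 2.88, 1.82, 4.16 and 2.75 on control arrays 1 to 4. It read 3.48, 3.94, 4.19 and 2.98 on PMSG arrays 1 to 4. Control array 3 lay above 3 of the 4 arrays labelled PMSG, so the labels overlapped. The difference was 0.75 (SE 0.48, limma adjusted p = 0.252). Without control array 3 it was 1.17 and passed (limma adjusted p = 0.0496), and without control array 2 it was 0.39 (limma adjusted p = 0.517).

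Retn encodes resistin, a hormone that fat cells secrete in rodents. Its levels were 3.15, 0.78, 4.45 and 3.17 on control arrays 1 to 4 and 4.22, 4.45, 4.71 and 2.98 on PMSG arrays 1 to 4. The arrays labelled control spanned 12.7-fold and those labelled PMSG 3.32-fold, and they overlapped. The difference was 1.20 (SE 0.74, limma adjusted p = 0.236).

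Lep encodes leptin, the signal of fat stores to the brain. It read -5.45, -5.13, -4.39 and -5.29 on control arrays 1 to 4 and -3.96, -4.15, -3.76 and -5.32 on PMSG arrays 1 to 4. PMSG arrays 1 to 3 all lay above the highest array labelled control, and PMSG array 4 lay among the lowest. The difference was 0.77 (SE 0.37, limma adjusted p = 0.142), and without PMSG array 4 it was 1.11 and passed (limma adjusted p = 0.0126). In the fit with array weights, PMSG array 4 received 0.279, the smallest of the 8 weights. The probe was dim, with a processed signal of 23.9 to 63.2 units.

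Plin1 encodes perilipin 1, the coat protein that guards the fat droplet against lipases. It read -4.88, -5.83, -3.67 and -4.99 on control arrays 1 to 4 and -4.01, -4.04, -3.77 and -5.03 on PMSG arrays 1 to 4. Its labels overlapped, with a difference of 0.63 (SE 0.46, limma adjusted p = 0.308). This probe was dim as well, at 18.5 to 78.6 signal units.

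Cidec, whose protein joins small droplets into the large one of the white fat cell, read -2.13, -4.79, -0.53 and -3.16 on control arrays 1 to 4. It read -2.29, -1.72, -0.99 and -2.23 on PMSG arrays 1 to 4. All 4 arrays labelled PMSG fell inside the control range, which spanned 19.2-fold. The difference was 0.84 (SE 0.81, limma adjusted p = 0.438).

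The probes of Cidec, Fabp4 and Pck1, the 3 genes with the largest spread, are shown because the genome position of the first and second tells a spliced transcript from DNA. The Cidec probe spans 5126 bases of rn4 (chromosome 4, 149309002 to 149314127) and the Fabp4 probe 2415 bases (chromosome 2, 93536175 to 93538589), although each has 60 bases, so each crosses at least 1 intron. The Pck1 probe lies within 60 unbroken bases (chromosome 3, 164017597 to 164017656). The probe sequences are given 5′ to 3′ as the scanner files list them.
Cidec: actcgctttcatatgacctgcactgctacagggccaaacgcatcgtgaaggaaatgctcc
Fabp4: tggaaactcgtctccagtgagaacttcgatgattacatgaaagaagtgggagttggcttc
Pck1: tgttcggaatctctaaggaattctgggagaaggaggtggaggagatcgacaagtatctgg

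Fabp4 encodes the fatty acid carrier of fat cells. It read 1.25, -1.42, 2.49 and 0.92 on control arrays 1 to 4 and 1.39, 2.14, 2.47 and 0.31 on PMSG arrays 1 to 4. Control array 2 alone lay below 0. The difference was 0.77 (SE 0.81, limma adjusted p = 0.481).

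Lpl encodes lipoprotein lipase, which cells secrete to the vessel wall. It read -1.22, -2.68, -0.23 and -1.52 on control arrays 1 to 4 and -1.11, -0.44, -0.13 and -1.42 on PMSG arrays 1 to 4, and the labels overlapped. The mean of 10 spots stood behind each value. The difference was 0.64 (SE 0.51, limma adjusted p = 0.350).

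Pck1 encodes the cytosolic phosphoenolpyruvate carboxykinase, which serves glyceroneogenesis in fat and glucose production in liver and kidney. It read -3.01, -5.53, -0.79 and -4.81 on control arrays 1 to 4 and -5.24, -3.49, -2.02 and -5.22 on PMSG arrays 1 to 4. The arrays labelled control spanned 26.7-fold and those labelled PMSG 9.32-fold. The probe was dim on control arrays 2 and 4 and PMSG arrays 1 and 4, at 22.9 to 39.4 signal units. These spans therefore rest partly on low signals. It was the single gene of the 9 with a lower mean in the arrays labelled PMSG, by -0.46 (SE 1.13, limma adjusted p = 0.767). The sign turned, to 0.46, without control array 3.

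**Figure D2:**
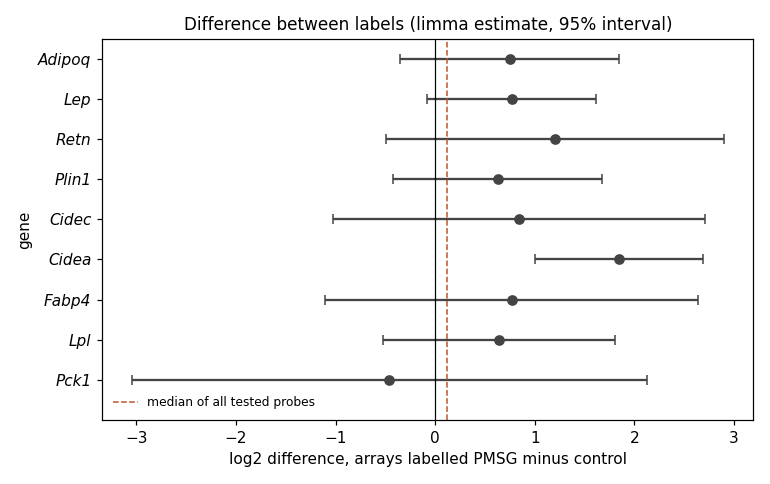
Difference between labels for each gene (x axis, log2, arrays labelled PMSG minus arrays labelled control) with its 95% limma interval, and the median of all tested probes as a dashed line. The interval of Cidea, centred on 1.85, lies above 0, and the other 8 intervals include 0.

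Several differences that did not pass depended on control arrays 2 and 3, in opposite directions. Without control array 2, the difference was 0.025 for Fabp4, 0.13 for Cidec, 0.22 for Lpl, 0.30 for Plin1 and 0.50 for Retn. That of Pck1 went from -0.46 to -1.12, and none of these passed in limma. Lep stayed at 0.74 and Cidea at 1.62 without that array. Without control array 3, the difference was 1.33 for Fabp4, 1.55 for Cidec, 1.03 for Lpl, 1.02 for Plin1 and 1.72 for Retn. None of these passed in limma either.

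The slide row moved with these differences. Control arrays 2 and 4 and PMSG arrays 2 and 3 lay in row 1, control arrays 1 and 3 and PMSG arrays 1 and 4 in row 2. Within row 1 the differences of the 8 genes other than Cidea ran from 1.26 (Lep) to 2.62 (Cidec), and Adipoq and Lep passed (limma adjusted p = 0.0470 and 0.0340). All 9 genes had an unadjusted limma p under 0.05 there, as did 9226 of 25303 tested probes. Within row 2 the differences of the same 8 genes ran from -3.33 (Pck1) to 0.28 (Lep), and none passed in limma. There, 1 of the 9, Pck1, had an unadjusted limma p under 0.05, as did 6015 of 25303 tested probes. Row 1 holds control array 2, the lowest control for 8 of the 9 genes, and row 2 holds control array 3, the highest for all 9. Each row holds 2 arrays of each label, so the slide row as a block over all 8 arrays cannot change the differences. With that block, 1 of the 9 genes, Cidea, passed limma. The SE of Adipoq was 0.51 in that fit, beside 0.48 without the block. Whether the label difference depended on the row was not tested.

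Whether Cidea moved more than the other 8 genes was tested on the difference of the changes, gene by gene. The change of Cidea was the larger in all 8 comparisons, by 0.64 (Retn) to 2.31 (Pck1) on the log2 scale. Cidea already had the largest difference of these genes on the same arrays, so this direction followed from the choice of Cidea. The permutation p-values do not allow for that choice, so they cannot decide whether Cidea stood apart. Exact two-sided permutation p-values ran from 0.0286 (Plin1) to 0.314, and none passed after adjustment over the 8 comparisons (smallest adjusted p = 0.171). With 0.0286 as the smallest p of this design, at least 5 of the 8 would have had to reach it for any to pass, so the failure says little. The gap between Cidea and Plin1 did not overlap between labels, and the other 7 did.

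The co-variation within labels was measured after each label's mean was subtracted, over the 8 arrays. Pearson's r of the 36 pairs of genes ran from 0.410 to 0.988, with a median of 0.881. Exact permutation within labels allows 576 orders, and 18 pairs passed after adjustment over the 36 pairs. By Spearman's rho, which ranged from 0.429 to 1.0, 16 pairs passed. The strongest pair was Retn and Fabp4 (r = 0.988, rho = 0.976; exact permutation p = 0.00347 and 0.0139, adjusted p = 0.0167 and 0.0385). Fabp4 and Lpl followed closely (r = 0.983, rho = 1.0; exact permutation p = 0.00174 and 0.00347, adjusted p = 0.0167 and 0.0250). A further step left out 2 arrays, those farthest from the median in the gene of the pair named first in the opening list. This gave r = 0.941 for the first pair and 0.998 for the second. Over the 18 pairs that passed, the same step left r between 0.626 (Plin1 and Pck1) and 0.998.

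Pck1 and Cidec, the 2 genes with lower levels on PMSG array 1 than on PMSG array 4, ranked all 8 deviations alike (r = 0.929, rho = 1.0; exact permutation p = 0.00174 for both, adjusted p = 0.0167 and 0.0250). Their r was 0.981 without control arrays 2 and 3. Adipoq had r of at least 0.9 with 6 of the other 8 genes, as did 0.526% of the other tested probes. Lpl had it with 6 of 8 too, beside 0.490% of probes.

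The pairs with Lep and with Cidea had lower r. None of the 8 pairs with Lep passed (median r = 0.608, smallest adjusted p of an exact permutation 0.0703, with 1 of 8 under 0.05 unadjusted). When control array 3 and PMSG array 4 were left out, all 8 became negative, -0.476 to -0.0934, so these relations rested on those 2 arrays. With the 2 arrays farthest in Adipoq left out instead, control arrays 2 and 3, r of Adipoq and Lep was 0.843. None of the 8 pairs with Cidea passed either (median r = 0.674, smallest adjusted p of an exact permutation 0.0595, with 2 of 8 under 0.05 unadjusted). By the step above, with the 2 arrays chosen in the gene listed first, they ran from -0.476 to 0.524. In pairs with Adipoq, Lep, Retn, Plin1 and Cidec that gene was not Cidea, so the omitted arrays differed between pairs. Without Cidea, the median over the remaining 28 pairs was 0.928.

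**Figure D3:**
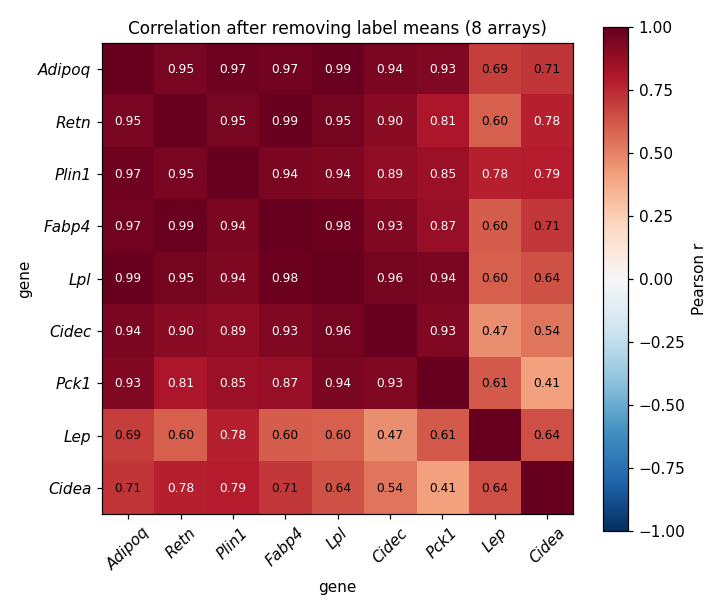
Pearson r between each pair of the 9 genes over 8 arrays after the label means were subtracted (both axes are genes, colour is r from -1 to 1). The block of 7 genes from Adipoq to Pck1 holds the highest values, up to 0.99, and the rows of Lep and Cidea lower ones, down to 0.41.

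The order of the arrays was shared. Control array 2 was the lowest control for 8 of the 9 genes, all but Lep, as it was for 25.3% of tested probes. Control array 3 was the highest control for all 9, beside 29.6% of probes. PMSG array 4 was the lowest of its label for 7 genes, all but Cidec and Pck1, beside 47.3% of probes. PMSG array 3 was the highest for 8 genes, all but Cidea, beside 37.0% of probes. All 4 places together were held by 5 genes (Adipoq, Retn, Plin1, Fabp4 and Lpl), against 3.05% of tested probes. Summed on the linear scale, where the 75th percentile is 1, the 9 genes came to 6.53 on control array 2 and 49.3 on control array 3. They came to 20.2 on PMSG array 4 and 55.004 on PMSG array 3.

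To find what else followed this order, 19982 genes were compared with the mean deviation of the 9. Of them, 94 genes (0.470%) had r of at least 0.9 over the 8 arrays and 29 (0.145%) had r of -0.9 or less. The median over all of them was 0.164, and 1.73% had r of at least 0.8. The 8 most alike, with r from 0.981 to 0.992, were Abcd2, Cdo1, Nr1h3, Cd36, C4a, Car3, Fam102b and Marc1. These points share their arrays and scaling, so r is given as a description.

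Of these 8, Car3, Cdo1 and Marc1 had SDs within labels inside the range of the 9 genes (1.52, 0.97 and 0.94), and the other 5 had smaller ones, 0.28 to 0.59. Car3 encodes a carbonic anhydrase that is abundant in fat cells. Car3 read -0.75, -3.60, 1.01 and -0.96 on control arrays 1 to 4 and -0.41, 0.62, 1.26 and -0.94 on PMSG arrays 1 to 4, with control array 2 far below the rest. Marc1, a mitochondrial reductase, ran from -1.95 (control array 2) to 1.103 (PMSG array 3). Cd36, a fatty acid transporter of fat cells, macrophages and capillaries, ran from 1.44 (control array 2) to 3.31 (control array 3). Cdo1, an enzyme of cysteine breakdown, ran from -5.48 (control array 2) to -2.43 (control array 3). Abcd2, a peroxisomal transporter of fatty acids, had the highest r, 0.992. Between labels, 2 of the 8 were called higher, C4a by 0.86 (limma adjusted p = 0.0308) and Nr1h3 by 0.64 (limma adjusted p = 0.0451). The C4a call held in 11 and the Nr1h3 call in 7 of 18 alternatives. C4a encodes a complement component and Nr1h3 the oxysterol receptor LXR alpha.

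Further fat cell genes, from a list of 24 of which 22 were found and all 22 tested, were split. By level within labels, 11 of the 22 had r of at least 0.8 with the mean deviation of the 9 genes, and 9 held the same 4 places in the array order. Their summed level ran from 36.9 (array 2) to 102.5 (array 3) over the controls and from 52.2 (array 4) to 116.0 (array 3) over the arrays labelled PMSG. Cfd, the secreted protease adipsin and the brightest of the list, read 1.90 on control array 2 and 5.19 on control array 3. Chosen after their values were seen, Adrb3 (r = 0.973), Acsl1 (0.971), Thrsp (0.961) and Aqp7 (0.952) were among the 11. They serve the adrenergic signal, fatty acid activation, lipogenesis and glycerol export. Pparg, the master regulator of fat cell formation, had r of 0.048, and Cebpa, its partner, 0.126. Both regulators were well above background on all 8 arrays, and Pparg is also known from granulosa cells.

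Between labels, 5 of these 22 genes were called higher, 1 lower, and 16 did not pass, with a median difference of 0.59. For this list and those that follow, 17.6% of all tested probes were called higher and 16.6% lower, with a median of 0.11. After median centring the split was 3 higher and 3 lower. Nnat was higher by 1.96 (limma adjusted p = 0.00382) and Slc2a4, the insulin-responsive glucose transporter, by 0.96 (limma adjusted p = 0.00879). These 2 calls held in all 18 alternatives fitted. Dgat2, which completes triglyceride synthesis, was higher by 1.72 (limma adjusted p = 0.0291), and Agpat2, an earlier acyltransferase, fell by 0.82 (limma adjusted p = 0.0408). The Dgat2 call held in 11 and the Agpat2 call in 9 of 18 alternatives.

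Of 14 brown fat genes found on the array, 11 were tested, and none of the 11 had r of at least 0.8 with the 9 genes. Their median r was 0.476, and 2 of them held all 4 places in the array order. Ppargc1a, Elovl3 and Zic1 were well above background on 1, 3 and 0 of the 8 arrays. Between labels, 4 were called higher and 7 did not pass, with a median difference of 0.66 (5 higher and 2 lower after quantile scaling, 3 higher and 1 lower after median centring). Slc27a2, a fatty acid transporter, was higher by 1.18 (limma adjusted p = 0.000531). Ucp1, the uncoupling protein that defines brown fat, was higher by 0.81 (limma adjusted p = 0.00239). Ucp1 levels were -5.53, -5.36, -5.02 and -5.08 on control arrays 1 to 4 and -4.41, -4.56, -4.43 and -4.37 on PMSG arrays 1 to 4. These levels were dim and did not overlap between labels, and r with the 9 genes was 0.321. After normexp background correction the Ucp1 difference was 0.39. Their summed level was 2.89 to 4.31 over the controls and 3.48 to 7.58 over the arrays labelled PMSG.

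Relatives of Plin1, Cidec and Cidea and other droplet genes were a further list. Of 9 tested, none was called higher, 2 lower and 7 did not pass, with a median difference of 0.017. Plin2, the droplet coat of most tissues including steroid-making cells, fell by 0.83 (limma adjusted p = 0.000446). Plin2 read 3.55, 3.36, 3.47 and 3.54 on control arrays 1 to 4 and 2.70, 2.69, 2.68 and 2.52 on PMSG arrays 1 to 4, with no overlap. Plin3 fell by 0.58 (limma adjusted p = 0.00159). Both calls held in all 18 alternatives, and the SD within labels of Plin2 was 0.087. Cideb, the CIDE protein of liver and gut, differed by 0.44 and did not pass (limma adjusted p = 0.0701). Fitm2, which helps form droplets, was the single gene of the list with r of at least 0.8 (0.932). Its brightest probe, used in these counts, differed by 0.39 and did not pass (limma adjusted p = 0.142). A second Fitm2 probe was called higher by 0.65 (limma adjusted p = 0.0146).

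Among 17 tested enzymes of the fatty acid and triglyceride cycle, 1 was called higher, 6 lower and 10 did not pass, with a median difference of -0.47 (none higher and 7 lower after median centring). Me1, malic enzyme, fell by 1.66 (limma adjusted p = 7.64e-05), G0s2, an inhibitor of the main fat lipase, by 0.91 (limma adjusted p = 0.00534). Scd, a stearoyl-CoA desaturase, fell by 0.76 and Lipa, the lysosomal lipase, by 0.72. A second Scd probe differed by -0.24 and did not pass (limma adjusted p = 0.463). Scd1, a separate entry of the list, differed by 0.12 and did not pass (limma adjusted p = 0.813). Acly, the citrate lyase and one of the brightest, fell by 0.51. Me1 and Scd had r of 0.108 and 0.353 with the 9 genes. Of the list, 4 genes had r of at least 0.8, among them Pc, pyruvate carboxylase, at 0.934, chosen after its value was seen.

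Around Lpl, 8 partner genes were tested, of which 2 were called higher, 2 lower and 4 did not pass, with a median difference of -0.34 (1 higher and 3 lower after median centring). Lipg, endothelial lipase, fell by 2.29 (limma adjusted p = 0.000171), and Sel1l, which helps the maturation of lipoprotein lipase, fell by 0.75 (limma adjusted p = 0.00140). Lipc, hepatic lipase, was higher by 1.07 (limma adjusted p = 0.0236) and Apoc2, the activator of lipoprotein lipase, by 0.76 (limma adjusted p = 0.0358). The Lipc call held in 11 of 17 alternatives, with a difference of 0.37 after normexp background correction, and the Apoc2 call in 8 of 18. Gpihbp1, which holds the enzyme at the capillary wall, differed by 0.0038 and did not pass (limma adjusted p = 0.992).

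Of 10 adipokine receptors and other secreted products, 3 were called higher, 4 lower and 3 did not pass, with a median difference of -0.025 (1 higher and 4 lower after median centring). Adipor2, an adiponectin receptor, fell by 1.06 (limma adjusted p = 0.00123), while Adipor1 differed by -0.25 and did not pass (limma adjusted p = 0.0947). Cap1, reported as a resistin receptor, fell by 0.81 (limma adjusted p = 0.00156). Lepr, the leptin receptor, was well above background on 5 arrays and did not pass (0.74, limma adjusted p = 0.212). Rbp4, a retinol carrier that fat cells secrete, was higher by 1.29 (limma adjusted p = 0.0295) and had r of 0.969 with the 9 genes. That call held in 11 of 18 alternatives and was lost when any of 6 arrays was left out.

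**Figure D4:**
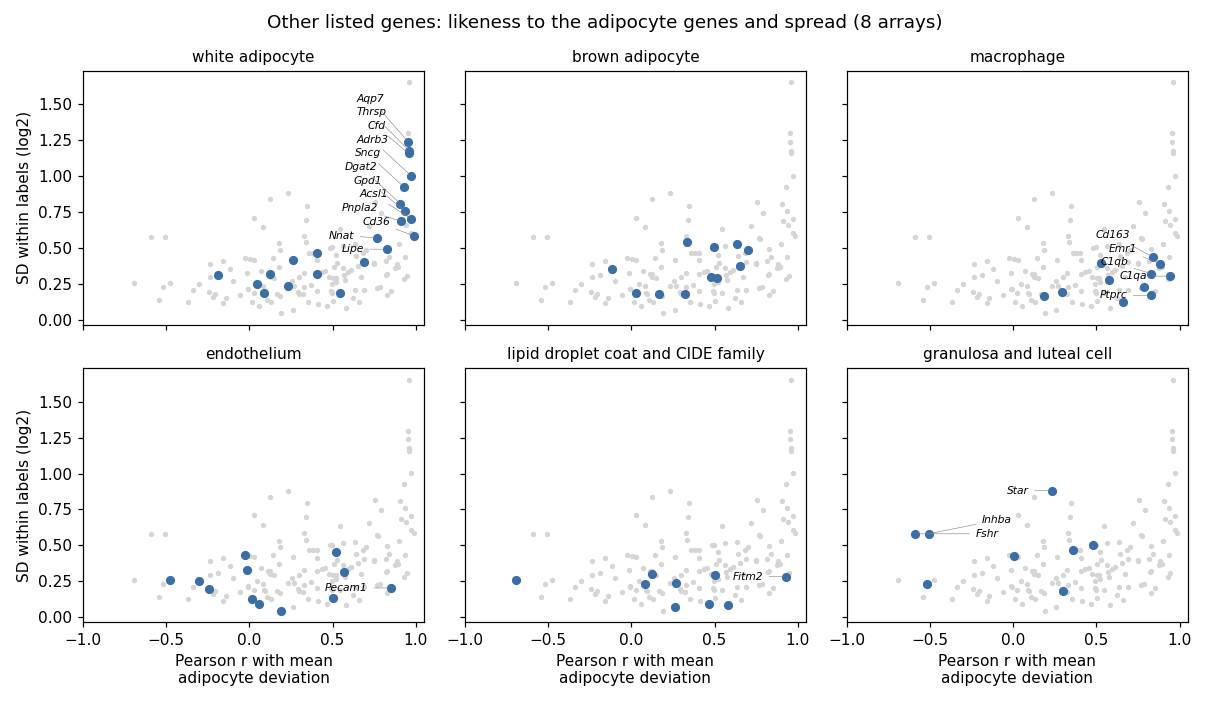
Each point is a gene: its Pearson r with the mean deviation of the 9 adipocyte genes (x axis) and its SD within labels in log2 units (y axis), over 8 arrays. Blue points belong to the list named above a panel and grey ones to all lists. White fat cell genes hold 11 points with r of at least 0.8 and macrophage genes 5, and the genes of brown fat and of granulosa and luteal cells none.

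Markers of other cells were followed over the same arrays. Of 11 macrophage genes tested, 5 had r of at least 0.8 with the 9 genes, with a median of 0.785. Their summed level was 14.9 (array 2) to 24.02 (array 3) over the controls and 23.4 (array 2) to 28.3 (array 3) over the arrays labelled PMSG. C1qa, a complement gene of tissue macrophages, had r of 0.944. C1qa was higher by 0.62 (limma adjusted p = 0.0434), a call that held in 8 of 18 alternatives. Of the list, 5 genes were called higher, none lower and 6 did not pass, with a median difference of 0.51 (3 higher and none lower after median centring). Ptprc was higher by 0.69, Aif1 by 0.68 and Laptm5 by 0.64, and these 3 calls held in all 18 alternatives. A second Ptprc probe differed by 0.61 and did not pass (limma adjusted p = 0.273). Cd163 and Mrc1, chosen after their values were seen, differed by -0.54 and -0.36 and did not pass (limma adjusted p = 0.164 and 0.291). The part of macrophages in the spread of the 9 genes was not tested.

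Of 11 genes of fat tissue stroma tested, the median r was 0.434 and 1 had r of at least 0.8: Agt, angiotensinogen, with r of 0.953, which read -1.67 on control array 2 and 2.08 on control array 3. Between labels, 4 were called higher, 1 lower and 6 did not pass, with a median difference of 0.39 (3 higher and 2 lower after median centring). Dpp4 was higher by 1.68 (limma adjusted p = 0.000824), Fmo2 by 1.54 (limma adjusted p = 0.00130) and Pi16 by 1.14 (limma adjusted p = 0.00110). These 3 calls held in all 18 alternatives. Pi16 and Dpp4 mark fibroblast-like progenitor cells of fat and other tissues. Their summed level was 6.71 (array 2) to 11.49 (array 3) over the controls and 12.2 to 13.7 over the arrays labelled PMSG.

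Of 12 endothelial genes, 1, Pecam1, had r of at least 0.8, and the median r was 0.035. Of the 12, 2 were called higher, 5 lower and 5 did not pass, with a median difference of -0.44 (1 higher and 6 lower after median centring). Among genes of the oviduct lining and the mesothelium, 2 of 10 had r of at least 0.8. Of these 10, 6 were called higher, none lower and 4 did not pass (6 higher and 1 lower after median centring), with a median of 1.09. Muc1 was higher by 3.04 and Cdh16 by 2.51 (limma adjusted p = 0.000171 and 0.000336). Muc1 was dim on the arrays labelled control, -6.63 to -5.26, and differed by 1.45 after normexp background correction. Their summed level was 8.88 to 12.7 over the controls and 15.5 to 26.5 over the arrays labelled PMSG, where array 4 was the highest and not the lowest.

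Skeletal muscle genes gave 2 higher, 1 lower and 7 not passing among 10 tested, with a median difference of 0.39, and none with r of at least 0.8. Red blood cell genes gave none higher, 1 lower and 3 not passing among 4 tested, with a median of -1.10 (none higher and 2 lower after median centring), and none with r of at least 0.8. Of 6 liver genes tested, 2 were called higher, 2 lower and 2 did not pass, with a median of 0.72. Tat, an enzyme of the liver, was well above background on none of the 8 arrays. Alb, albumin, had r of 0.957 and was dim, at -8.74 on control array 2 and -3.55 on PMSG array 3. It was chosen after its value was seen.

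Promoter sequence was looked at last, because 7 of the 9 genes are in the RefSeq promoter table of the rat build GRCr8 (Fabp4 and Lpl were not matched). Windows of 250 bases before to 50 after the start were searched on both strands for 4 motifs. The C/EBP motif TTGCGCAA reads the same on both strands and was found in Lep, at positions -69 to -62 from the start, and in 0.170% of all 33469 promoters. The CRE-like motif TTACGTCA was found in Pck1, at -93 to -86, and in 0.807% of promoters. The short nuclear receptor motif AGGTCA was found in Retn and Pck1 and in 16.2% of promoters. The paired form bound by PPAR and RXR, in which AGGTCA occurs again in the same direction after 1 base of any kind, was in 0 of the 7 and in 0.0538% of all promoters. C/EBP factors are known regulators of Lep in fat cells, and the CRE of Pck1 is known to mediate its response to cyclic AMP. The 120 bases before the start of both genes are printed below, 5′ to 3′ on the plus strand of GRCr8, with the motif in capitals, since these were the 2 rarer matches (Lep chr4:58626418-58626537, Pck1 chr3:182348452-182348571). A match is a description of letters, and nothing bound there was measured.
Lep: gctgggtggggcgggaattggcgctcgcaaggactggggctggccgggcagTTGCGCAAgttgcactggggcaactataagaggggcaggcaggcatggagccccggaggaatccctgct
Pck1: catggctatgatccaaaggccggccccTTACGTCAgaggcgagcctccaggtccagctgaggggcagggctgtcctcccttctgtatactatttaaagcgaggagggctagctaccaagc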

How the data were processed

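The authors deposited 1-colour Agilent scanner files of intensity values, with coordinates of the build rn4 and extracted with Agilent Feature Extraction 11.5.1.1, per the file headers. Per the labels, 500 ng of total RNA was copied from an oligo-dT primer and labelled with Cy3. The processed signal was already background-corrected per the file headers. A deposited table of log2 values of the same arrays served as an alternative. Its scaling is not given in the sources used here. All its columns and those of the scanner files that hold sample values were mapped.

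Control spots and outlier spots were left out, which kept 30350 of 30367 probes. The log2 of each spot was taken, spots of a probe were averaged, and the array's 75th percentile was subtracted. Of these, 25303 probes were well above background (at least 0.5 of spots) on at least 4 arrays and were tested with limma 3.58.1 in R 4.3.3, with Benjamini-Hochberg adjustment and a threshold of 0.05. A gene is its brightest probe. The number of arrays limits the precision, and no spot was saturated. On simulated data for the comparison of labels, 200 of 25303 probes were changed. The test recovered 59% of 2-fold and 81% of 4-fold changes there. In the real data 34.2% of probes were called, which eases the adjustment, so these rates need not hold for the real comparison.

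The 9 genes, the 14 gene lists and the tests were chosen with earlier results of these data known. Genes named from a list are its 4 largest called differences and its 3 brightest, or are said to be chosen afterwards; 1 such gene is not reported here. The 8 genes most like the 9 were taken by Pearson's r. Older array names were matched through RefSeq accessions. No genome or annotation of rn4 was used, so exons are not given.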

Additional observations from a re-analysis of the deposited data

How the results depend on the processing

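Differences between labels were counted again with other scalings, filters, backgrounds, array weights, blocks and the deposited table. Of 8658 probes called, leaving out 1 array gave 6552 to 11382. Within slide row 1 the count was 3351 and within row 2 it was 0, each with 2 arrays a label (rows, the Adipoq level as a covariate and the joint omission of 2 arrays for the Lep pairs were added after seeing the data). Median centring turned 51.4% higher calls into 34.5% and the median difference of all probes from 0.11 to -0.05. The count of called genes among the 9 was 1, and 1 to 2 when 1 array was left out. It was 2 with array weights (Lep and Cidea), 2 with the Adipoq covariate (Cidea and Pck1), 3 within row 1 (Adipoq, Lep and Cidea) and 0 within row 2. With the Adipoq level as a covariate, Pck1 differed by -2.11 (limma adjusted p = 0.0239) and Cidea by 1.44 (limma adjusted p = 0.0166), while Plin1 (-0.065), Cidec (-0.37), Fabp4 (-0.48) and Lpl (-0.14) changed sign. Within row 2, Adipoq (-0.28), Retn (-0.20), Plin1 (-0.24), Cidec (-0.93), Fabp4 (-1.02) and Lpl (-0.53) changed sign, and within row 1 Pck1 did (2.41). Pck1 ran from -1.12 (without control replicate 2) to 0.46 (without control replicate 3). The causes were not tested.

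The median correlation of the 36 pairs was 0.881. It was 0.821 by Spearman and ran from 0.772 (without control replicate 3) to 0.928 (without PMSG replicate 1). With the replicate block it was 0.826. The labels give both groups replicate numbers 1 to 4 without saying whether the numbers pair the arrays. Deviations of same-numbered arrays had r of 0.0444, 0.0361, 0.183 and -0.0192. Low values do not show that the samples were unpaired. The replicate block gave 7346 probes and 1 of the 9 genes. Lep and Plin1 were dim, and the low signal limits their differences. Pck1 was dim on control arrays 2 and 4 and PMSG arrays 1 and 4, and Cidec on control array 2 (38.2 signal units). The low signal there limits the spread, differences and correlations of these genes. After normexp background correction the SE of the Pck1 difference was 0.65, beside 1.13 in the main fit.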
